A study of Mus musculus with 10 samples.

Results

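The Toll-like receptors *Tlr1* to *Tlr9* and their shared adaptor *Myd88* were followed in sorted mouse retinal cells after optic nerve crush (ONC). The members were taken by symbol from the RNA-seq table, where all 10 were found among 53974 genes, in TPM (the abundance of a transcript relative to all transcripts of the library, corrected for length). The 8 members that reached 1 TPM in 3 or more libraries were tested. *Tlr8* and *Tlr9* did not pass and are described by their values alone. Of the 16600 ATAC-seq regions, 1 lay within 1000 bp of an end of a member gene. All libraries came from C57BL/6 mice carrying *Arid1a* fl/fl alleles, labelled as 8 to 10 weeks old. One group, called WT, had received AAV2-GFP in the vitreous, and the other, called cKO and labelled *Arid1a* del/del, had received AAV2-Cre, so that both groups carried the floxed alleles, an AAV2 injection and, 2 weeks later, ONC. The authors' methods state a higher titer (virus genomes per ml) for AAV2-GFP than for AAV2-Cre. Titer and Cre thus differed together between the groups and cannot be told apart. The retinas were taken 3 days after ONC, several retinas were pooled per sample, and live cells stained by an antibody to Thy1.2 were sorted. RNA-seq covered 3 WT and 3 cKO libraries, and ATAC-seq, which maps open chromatin, covered 2 WT and 2 cKO libraries. Cre was delivered by an AAV2 with a CMV promoter, which is not restricted to a single cell type.

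Toll-like receptors are membrane proteins of the innate immune system that bind molecules of microbes and of damaged cells. TLR1, TLR2, TLR4, TLR5 and TLR6 act mainly at the cell surface, where TLR2 pairs with TLR1 or TLR6 to bind lipoproteins, TLR4 senses lipopolysaccharide and TLR5 senses flagellin. TLR3, TLR7, TLR8 and TLR9 act in endosomes and sense nucleic acids. All of these receptors except TLR3 signal through MYD88, which gathers IRAK kinases and TRAF6 and leads to NF-kB and to inflammatory cytokines. TLR3 signals through TICAM1. In the retina, microglia and macrophages are known to carry many of these receptors, and Mueller glia are known to express some of them.

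*Arid1a* RNA was not lower in the libraries labelled cKO. It stood at 18.8, 11.7 and 14.1 TPM in WT libraries 1 to 3 and at 18.8, 27.9 and 25.0 TPM in cKO libraries 1 to 3 (log2 fold change 0.66, SE 0.28, limma adjusted p = 0.274). Gene-level TPM also counts reads from any part of the gene that is not deleted, so this value alone does not check the deletion. The direction of every RNA difference below rests on the labels. Markers of cell types other than retinal ganglion cells (RGCs), which the sort was meant to collect, were present. Summed TPM of 18 myeloid markers was 2535 to 4053 in WT and 1187 to 1664 in cKO, that of 10 T cell markers 646 to 1866 and 165 to 398, and that of 6 rod markers 12100.2 to 16907 and 24693 to 47201. Summed TPM of 12 RGC markers was 147 to 201 in WT and 227 to 252 in cKO, but of the 9 tested 4 had log2 fold changes below 0 and 5 above (median 0.02). *Pou4f2* and *Pou4f3* were under 1 TPM in every library. In such bulk samples, fewer cells of a type and less RNA per cell cannot be told apart.

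*Myd88* and *Tlr2* had the highest mean RNA levels among the members in WT. *Tlr3* was close to *Tlr2* (20.7 against 21.2 TPM), and their ranges overlapped. Of the members tested, *Myd88*, *Tlr2* and *Tlr7* were lower in every library labelled cKO than in every WT library. None of these differences passed the threshold after adjustment over all genes. *Tlr3*, *Tlr1*, *Tlr4*, *Tlr5* and *Tlr6* had lower means in cKO, but their groups overlapped.

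Among the surface receptors, *Tlr2* was the most abundant. Its level was 19.1, 16.8 and 27.7 TPM in WT libraries 1 to 3 and 15.4, 7.78 and 10.5 TPM in cKO libraries 1 to 3. The groups did not overlap, although the highest cKO library came within a few TPM of the lowest WT library. The means were 21.2 ± 5.71 TPM in WT and 11.2 ± 3.83 TPM in cKO (SD, n = 3 each). On the scale of log2(TPM + 1), *Tlr2* differed by a log2 fold change of -0.88 (SE 0.33, 95% interval -1.66 to -0.10), with an unadjusted limma p of 0.032 and an adjusted p of 0.227. The exact two-sided permutation test gave p = 0.1, the smallest value that 3 against 3 libraries allow.

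*Tlr1*, whose product pairs with TLR2 on triacylated lipoproteins, varied most within WT. It was at 7.89, 1.26 and 9.96 TPM in WT libraries 1 to 3 and at 4.02, 3.03 and 4.84 TPM in cKO libraries 1 to 3. WT library 2 was below all 3 cKO libraries and the other two WT libraries were above them, so the groups overlapped (log2 fold change -0.30, SE 0.60, limma adjusted p = 0.821). Without WT library 2 the log2 fold change was -1.01 (limma adjusted p = 0.154), and without WT library 3 it was 0.13. *Tlr6*, whose product pairs with TLR2 on diacylated lipoproteins, was at 3.70, 1.67 and 5.10 TPM in WT and 1.64, 0.958 and 4.05 TPM in cKO libraries 1 to 3. Each cKO library was below the WT library of the same number, but the groups overlapped (log2 fold change -0.52, SE 0.47, limma adjusted p = 0.593). *Tlr6* shares 868 bp with *Fam114a1*, so reads from that stretch could count toward either gene.

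*Tlr4*, the lipopolysaccharide receptor, was at 3.74, 1.95 and 7.54 TPM in WT libraries 1 to 3 and at 2.68, 2.14 and 4.24 TPM in cKO libraries 1 to 3. WT library 3 was the highest of the 6, and WT library 2 was the lowest (log2 fold change -0.33, SE 0.45, limma adjusted p = 0.726). Leaving out WT library 3 turned the log2 fold change of *Tlr4* to 0.071. *Tlr5*, the flagellin receptor, was near the filter throughout, at 0.865, 2.38 and 1.06 TPM in WT and 0.681, 0.455 and 1.40 TPM in cKO libraries 1 to 3 (log2 fold change -0.38, SE 0.36, limma adjusted p = 0.598).

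Of the endosomal receptors, *Tlr3*, which senses double-stranded RNA, was the most abundant. It was at 12.9, 22.6 and 26.6 TPM in WT libraries 1 to 3 and at 10.8, 12.4 and 28.9 TPM in cKO libraries 1 to 3. The highest value of all was thus in a cKO library, and the groups overlapped widely. The means were 20.7 ± 7.06 TPM in WT and 17.4 ± 10.0 TPM in cKO (SD, n = 3 each). The log2 fold change was -0.31 (SE 0.44, 95% interval -1.35 to 0.73, limma adjusted p = 0.736). A change of *Tlr3* in either direction within that interval was not resolved by these libraries.

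*Tlr7*, which senses single-stranded RNA, was at 4.44, 3.62 and 4.87 TPM in WT libraries 1 to 3 and at 2.31, 1.35 and 2.28 TPM in cKO libraries 1 to 3. All WT values exceeded all cKO values, and the spread within each group was small, with means of 4.31 ± 0.637 and 1.98 ± 0.549 TPM (SD, n = 3 each). The log2 fold change was -0.84 (SE 0.29, 95% interval -1.52 to -0.16), with an unadjusted limma p of 0.022, an adjusted p of 0.196 and an exact permutation p of 0.1. *Tlr8* lies next to *Tlr7* on chromosome X, 39050 bp away, and was at 0.893, 0.754 and 2.45 TPM in WT and 0.608, 0.728 and 0.541 TPM in cKO libraries 1 to 3. These groups did not overlap either (exact two-sided permutation p = 0.1), but the gap between WT library 2 and cKO library 2 was small. *Tlr9*, which senses unmethylated CpG DNA, was at 0.218, 1.95 and 0.327 TPM in WT and 0.355, 0.0415 and 0.165 TPM in cKO libraries 1 to 3. Only WT library 2 was above 1 TPM for *Tlr9*.

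*Myd88* was the most abundant member in both groups. It was at 43.6, 51.9 and 58.6 TPM in WT libraries 1 to 3 and at 22.9, 22.6 and 33.4 TPM in cKO libraries 1 to 3. The lowest WT library was well above the highest cKO library, and the means were 51.4 ± 7.51 and 26.3 ± 6.17 TPM (SD, n = 3 each). The log2 fold change of -0.95 (SE 0.25, 95% interval -1.54 to -0.36) had the largest size among the 8 members tested at a pseudocount of 1. At a pseudocount of 0.1 it was -0.98, and that of *Tlr7* was larger in size, at -1.11. It was also exceeded in size by *Tlr2*, among others, without WT library 2 (-1.02 against -0.94) and without cKO library 1 (-1.11 against -0.87). Its unadjusted limma p was 0.007, its adjusted p was 0.145, and its exact two-sided permutation p was 0.1. Over all alternative settings and left-out libraries, the log2 fold change of *Myd88* stayed between -1.13 and -0.86, and its adjusted limma p between 0.0979 and 0.493.

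**Figure D1:**
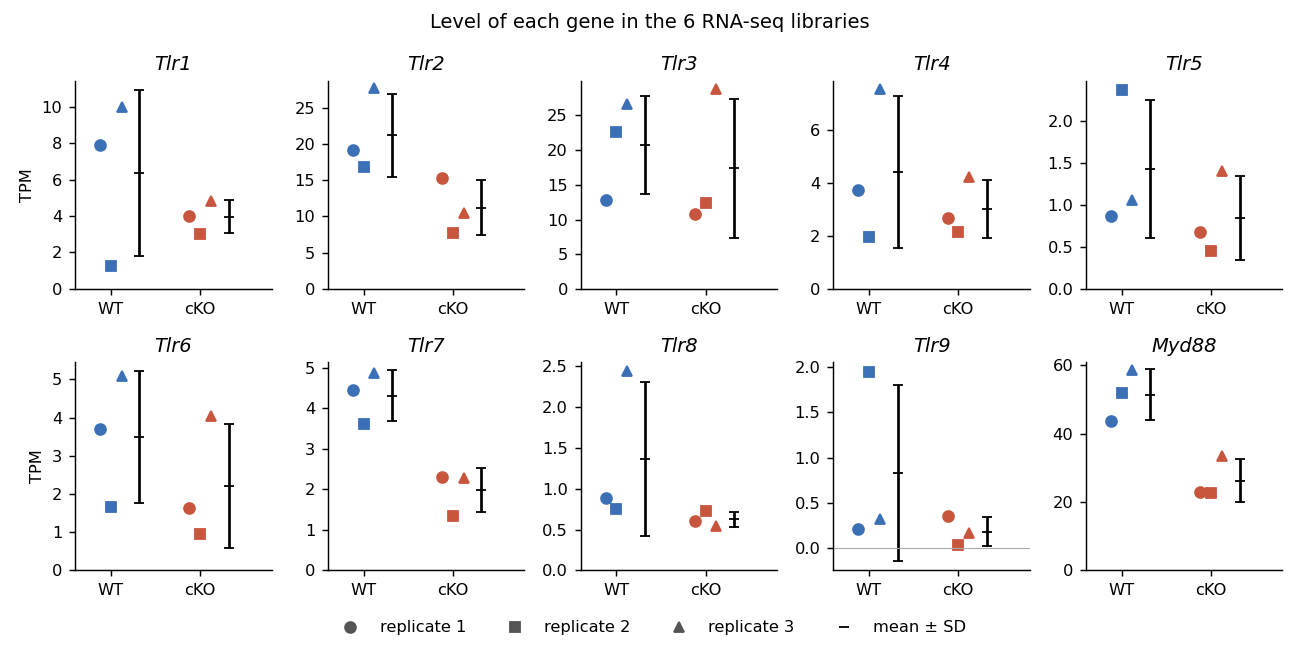
TPM of each of the 10 genes (vertical axis, starting at 0 except for *Tlr9*, where the lower error bar passes below it) in the 3 WT libraries (blue) and the 3 libraries labelled cKO (red), with the mean and SD of each group in black. *Tlr2*, *Tlr7*, *Tlr8* and *Myd88* do not overlap between the groups, while for *Tlr1* WT replicate 2 at 1.26 TPM is the lowest of the 6 libraries.

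Set against all genes, 0 of the 8 members tested passed an adjusted p of 0.05 in limma in the lower direction, as did 0.0% of the 17555 genes tested, and 0 did in the higher direction, against 0.0057%. At an unadjusted p under 0.05, 3 of 8 were lower (*Tlr2*, *Tlr7* and *Myd88*), where 6.45% of all genes were, and 0 of 8 were higher, where 11.9% of all genes were. The same 3 of 8 did not overlap between the groups with cKO lower, against 7.18% of all genes, and 0 of 8 with cKO higher, against 18.7%. All 8 log2 fold changes were below 0, as were 38.9% of those of all genes. Their median was -0.45 (range -0.95 to -0.30), and the median over all genes tested was 0.16. Scaling the libraries by the median of ratios moved the median over all genes by -0.15, to 0.01, and that of the members to -0.56. With that scaling, *Myd88* stood at -1.12, *Tlr2* at -1.04 and *Tlr7* at -0.97. Counts at an unadjusted p under 0.05 over all genes went from 1133 lower and 2095 higher to 1675 lower and 1338 higher, so that the share of higher genes among them fell from 64.9% to 44.4%.

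**Figure D2:**
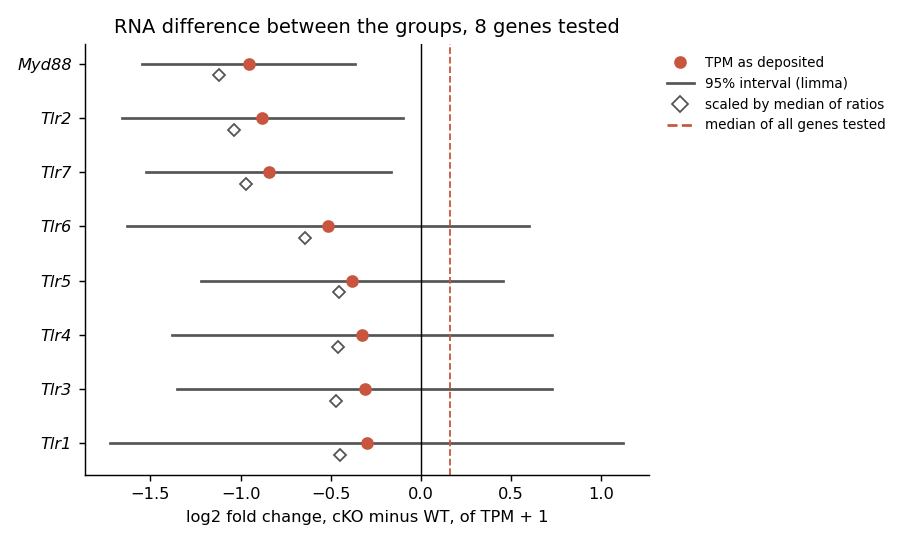
Log2 fold change of TPM + 1, cKO minus WT (horizontal axis), of the 8 genes tested, with its 95% interval from limma, and the same after scaling the libraries by the median of ratios (open diamonds). The intervals of *Myd88* (-1.54 to -0.36), *Tlr2* and *Tlr7* lie below 0, and those of the other 5 genes cross it. The dashed line is the median of all genes tested, 0.16.

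The count of members lower at an unadjusted p under 0.05 depended on single libraries. It was 1 of 8 without WT library 1, 1 of 7 without WT library 3 and 1 of 8 without cKO library 2, each time *Myd88*. Over all genes, 1145 of 17039, 848 of 17078 and 699 of 16952 were lower at that level in these fits. The members numbered 4 of 7 without WT library 2 (*Tlr1*, *Tlr2*, *Tlr7* and *Myd88*), 3 of 8 without cKO library 1 and 2 of 7 without cKO library 3. Over all genes, 1321 of 17167, 887 of 16938 and 1223 of 17024 were lower at that level there. *Myd88* was thus below that level in each of these 6 fits, with log2 fold changes from -1.13 to -0.86. Between libraries of the same number, *Tlr2*, *Tlr6*, *Tlr7*, *Tlr8* and *Myd88* were lower in cKO in 3 of 3 comparisons, and *Tlr1*, *Tlr3*, *Tlr4*, *Tlr5* and *Tlr9* in 2 of 3. For *Tlr2*, *Tlr7*, *Tlr8* and *Myd88* this follows from groups that do not overlap. The labels do not say that libraries of the same number were handled together. The same count over all genes was not made.

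The order of the levels, in TPM, was much alike in the groups. In WT, mean levels ran from *Myd88* at 51.4 TPM through *Tlr2* at 21.2 and *Tlr3* at 20.7 to *Tlr1* at 6.37, *Tlr4* at 4.41, *Tlr7* at 4.31, *Tlr6* at 3.49, *Tlr5* at 1.44, *Tlr8* at 1.36 and *Tlr9* at 0.830. Of these neighbours, *Myd88* and *Tlr2* did not overlap over the 3 WT libraries, nor did *Tlr3* and *Tlr1*, while all other neighbours overlapped. In cKO, *Tlr3* had the second highest mean, at 17.4 TPM, and *Tlr2* the third, at 11.2 TPM, and these overlapped. The 9 receptors summed to 53.8, 53.0 and 85.6 TPM in WT libraries 1 to 3 and to 38.4, 28.9 and 56.9 TPM in cKO libraries 1 to 3, which overlapped (exact two-sided permutation p = 0.3). *Tlr3* made up 24.0%, 42.6% and 31.1% of that sum in WT and 28.1%, 43.0% and 50.8% in cKO.

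*Tlr3* was set beside markers of Mueller glia and astrocytes, and *Tlr2*, *Tlr7* and *Myd88* beside myeloid markers. Summed TPM of 7 markers of Mueller glia and astrocytes (such as *Rlbp1* and *Glul*) was 8032, 13063 and 14963 in WT libraries 1 to 3 and 5484, 6187 and 14383 in cKO libraries 1 to 3. Per 1000 TPM of these markers, *Tlr3* was at 1.60, 1.73 and 1.78 TPM in WT and at 1.97, 2.01 and 2.01 TPM in cKO libraries 1 to 3. On that scale the *Tlr3* values lay close together, and those of cKO were all above those of WT (1.70 ± 0.0904 against 1.99 ± 0.0224, SD, n = 3 each), whereas its TPM was lower on average in cKO. The part of the Mueller glia and astrocyte markers in the *Tlr3* values was not tested otherwise.

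Of the 18 myeloid markers, which include *Cx3cr1*, *Aif1* and *C1qa*, 16 had a log2 fold change below 0 (beside 38.9% of all genes) and 6 were lower at an unadjusted p under 0.05 (beside 6.45%), with a median of -0.65. None of the 18 was under 1 TPM in all libraries. Per 1000 TPM of their sum, *Myd88* was at 14.1, 20.5 and 14.5 TPM in WT and at 13.7, 16.6 and 28.1 TPM in cKO libraries 1 to 3, *Tlr2* was at 6.19, 6.63 and 6.83 TPM and at 9.22, 5.71 and 8.84 TPM, and *Tlr7* was at 1.44, 1.43 and 1.20 TPM and at 1.39, 0.987 and 1.92 TPM. These 3 genes were the tested members whose groups did not overlap in TPM, and on this scale the groups of each overlapped. The marker sum was itself lower in every cKO library (1187 to 1664 TPM, against 2535 to 4053 in WT), which raises the cKO ratios. Markers of other immune cells also had lower means. All 10 T cell markers had log2 fold changes below 0 (median -2.03), as had the 6 of 7 B cell markers tested (sum 32.7 to 115 TPM in WT and 11.0 to 22.8 TPM in cKO) and 5 of the 6 of 7 dendritic cell markers tested (sum 31.4 to 74.9 and 23.1 to 26.7 TPM). Summed neutrophil markers overlapped, at 3.96 to 18.3 TPM in WT and 4.46 to 15.4 TPM in cKO, with 4 of 7 under 1 TPM in every library. Endothelial markers overlapped too, at 303 to 665 and 254 to 677 TPM. The part of the T, B and dendritic cell markers in the values of the members was not tested. These ratios were chosen after the values had been seen and carry no test.

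**Figure D3:**
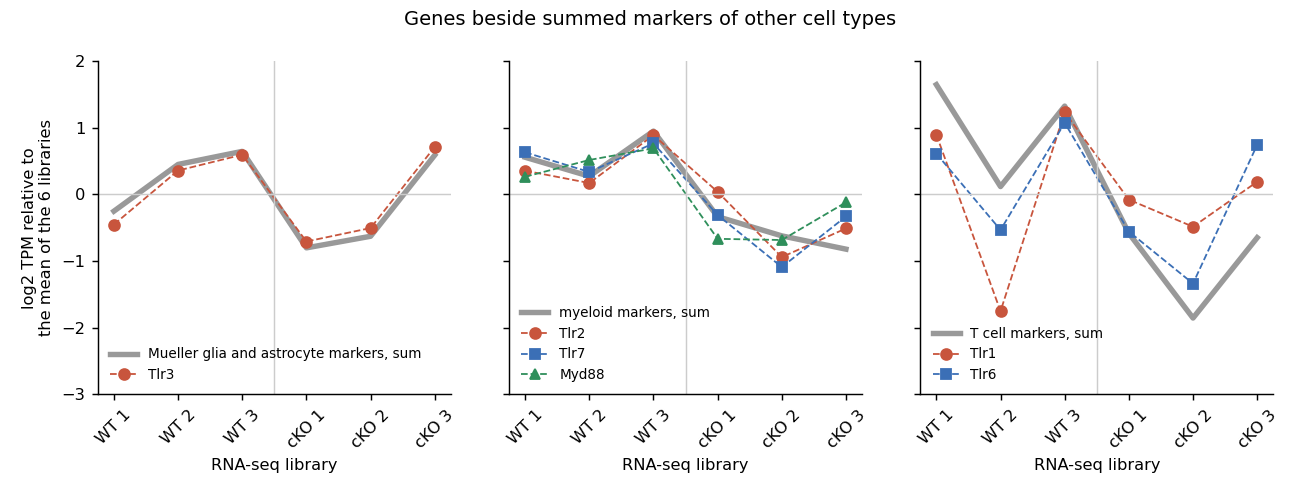
Log2 TPM relative to the mean of the 6 libraries (vertical axis) in each RNA-seq library, for summed cell type markers (grey) and for the named genes. *Tlr3* runs close to the Mueller glia and astrocyte line, including cKO replicate 3. *Tlr2*, *Tlr7* and *Myd88* are above their mean with the myeloid markers in all 3 WT libraries. *Tlr2* is also slightly above its mean in cKO replicate 1, where the myeloid sum is below its own. *Tlr1* is lowest in WT replicate 2 (1.26 TPM), while the T cell sum is lowest in the cKO libraries (398, 165 and 380 TPM).

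Genes with the most similar profile over the 6 libraries were sought among 17554 others, by the root-mean-square difference of log2 values centred on their mean. *Anxa4* (0.04) and *Castor1* (0.06) were nearest to *Myd88*, and *Lyn* (0.09), a kinase of the SRC family, and *2010008C14Rik* (0.14) were nearest to *Tlr2*. *Map3k8* (0.09), a kinase that acts downstream of Toll-like receptors, and *Mcm5* (0.10) were nearest to *Tlr7*, and *Rel* (0.15), a subunit of NF-kB, and *Itprip* (0.17) were nearest to *Tlr1*. *Tlr3* ran closest to *Pygb* (0.07), a glycogen phosphorylase, and *Timp3* (0.08), an inhibitor of metalloproteinases. For *Tlr4* these were *Gm42788* (0.12) and *Mob1a* (0.13), for *Tlr5* *Tbc1d16* (0.04) and *Fntb* (0.07), and for *Tlr6* *Klrb1a* (0.14) and *Tlr12* (0.17). Among 17554 candidates over 6 libraries some gene always lies close. Whether any of these resemblances exceeds what such a search finds by chance was not tested.

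The pathway around the receptors was described with a list of 75 further genes, of which 69 were tested. 54 of the 69 had log2 fold changes below 0 and 15 above, with a median of -0.53 beside 0.16 over all genes. None passed an adjusted p of 0.05 in limma. At an unadjusted p under 0.05, 21 were lower (30.4%, beside 6.45% of all genes) and 1 was higher (beside 11.9%). The groups did not overlap with cKO lower for 18 (26.1%, beside 7.18% of all genes) and with cKO higher for 3 (beside 18.7%). The 21 fell to 13 of 66 without WT library 1 and 12 of 66 without WT library 3. The count was 10 of 68 without cKO library 2 and 29 of 69 without WT library 2. Over all genes, 1145 of 17039, 848 of 17078, 699 of 16952 and 1321 of 17167 were lower at that level in these fits, beside 1133 of 17555. The median of the pathway genes was -0.70 after scaling by the median of ratios.

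Of the other mouse Toll-like receptors, *Tlr13*, a sensor of bacterial ribosomal RNA, was at 8.07, 12.1 and 16.1 TPM in WT and 6.05, 4.94 and 5.69 TPM in cKO libraries 1 to 3 (log2 fold change -0.95, SE 0.31, limma adjusted p = 0.188). *Tlr12* overlapped between the groups (log2 fold change -0.36), and *Tlr11* was under 1 TPM in every library. *Unc93b1*, which carries the endosomal receptors to their compartment, was at 117, 100.4 and 199.8 TPM in WT and 63.1, 45.8 and 65.6 TPM in cKO libraries 1 to 3 (log2 fold change -1.20, limma adjusted p = 0.142). The other 4 trafficking and folding genes had overlapping groups, among them *Hsp90b1*, a chaperone for these receptors, with a log2 fold change of 0.00 to 2 decimals. Of 6 co-receptors tested, all had log2 fold changes below 0 (beside 38.9% of all genes). At an unadjusted p under 0.05, 1 of them was lower (beside 6.45% of all genes), namely *Cd180* (-1.08, limma adjusted p = 0.164).

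The adaptors pointed in different directions. *Pik3ap1*, which links these receptors to phosphoinositide 3-kinase, was at 24.0, 30.2 and 44.6 TPM in WT and 13.5, 8.25 and 12.1 TPM in cKO libraries 1 to 3 (log2 fold change -1.45, limma adjusted p = 0.124). *Sarm1*, known in neurons for driving axon degeneration, was at 8.61, 9.51 and 15.9 TPM in WT and 21.2, 25.0 and 32.7 TPM in cKO libraries 1 to 3 (log2 fold change 1.17, limma adjusted p = 0.147). *Sarm1* was the 1 gene of the list that was higher at an unadjusted p under 0.05. *Tirap*, *Ticam1* and *Ticam2*, which connect receptors to MYD88 or to the interferon branch, all overlapped between the groups.

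Over all genes, 6.45% were lower at an unadjusted limma p under 0.05, the share to set beside the counts that follow. Among 19 kinases and ubiquitin ligases the median log2 fold change was -0.01, and 3 were lower at that level: *Ikbke* (-1.72, limma adjusted p = 0.151), *Irak3* (-1.18, adjusted p = 0.134) and *Btk* (-0.91, adjusted p = 0.223). The kinases *Irak1* and *Irak4* and the ligase *Traf6*, which act directly downstream of MYD88, had log2 fold changes of 0.03, -0.65 and -0.01, and their groups overlapped. Of 9 inhibitors, 3 were lower at that level, namely *Nfkbia* (-1.42, limma adjusted p = 0.124), which holds NF-kB in the cytoplasm, *Zc3h12a* (-1.07, adjusted p = 0.173) and *Tnip1* (-0.56, adjusted p = 0.262). Of 7 transcription factors, *Irf8* (-1.73, limma adjusted p = 0.124), *Irf7* (-1.66, adjusted p = 0.124) and *Irf5* (-1.03, adjusted p = 0.186) were lower at that level. The targets had the lowest median, -1.29, and 8 of 11 tested were lower at that level (beside 6.45% of all genes). The groups did not overlap with cKO lower for 2 of 11 (beside 7.18% of all genes). These were *Tnf*, at 35.0, 16.3 and 29.6 TPM in WT and 15.1, 4.68 and 9.65 TPM in cKO libraries 1 to 3 (-1.43, limma adjusted p = 0.184), and *Cxcl10*, at 33.3, 13.5 and 24.7 TPM and at 9.02, 6.05 and 5.51 TPM (-1.60, adjusted p = 0.129). *Ifnb1* was listed at 0 in all 6 libraries. Of 5 endogenous ligands tested, 0 were lower or higher at an unadjusted p under 0.05 in limma (beside 6.45% and 11.9% of all genes). None of them passed adjustment.

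**Figure D4:**
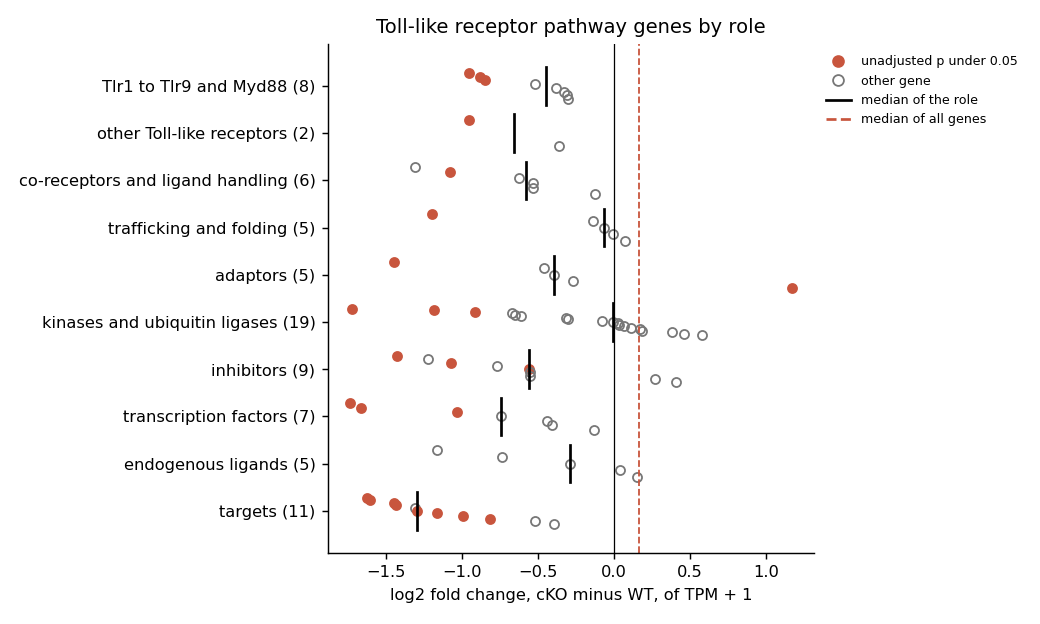
Log2 fold change of TPM + 1, cKO minus WT (horizontal axis), of the members (top row) and of the other pathway genes by role (number tested in brackets). Filled points have an unadjusted limma p under 0.05, black bars are medians and the dashed line is the median of all genes. The targets have the lowest median (-1.29), the kinases and ubiquitin ligases lie around 0 (-0.01), and *Sarm1* is the filled point at 1.17.

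In the ATAC-seq data, the 1 region near a member lay beside *Myd88*, at chr9:119340931-119341672 (GRCm38, 742 bp). *Myd88* lies on the minus strand from 119335934 to 119340018, so the region begins 913 bp before its 5' end. It covers the annotated start of the neighbouring gene *Acaa1a*, a peroxisomal thiolase, and lies mostly inside that gene. The authors' group values, given without an error, were 5.69 in WT and 2.79 in cKO on the scale of log2 mean normalized reads, which correspond to 51.6 and 6.92 normalized reads. The difference of -2.90 is 7.46-fold lower in cKO. Of all 16600 regions, 59.8% had a difference of -1 or lower, the median was -1.57, and 20.03% were as low as the *Myd88* region or lower. The difference is therefore one that many regions shared. *Acaa1a* RNA itself was at 135, 259 and 224 TPM in WT and at 171, 155 and 239 TPM in cKO libraries 1 to 3, with overlapping groups (log2 fold change -0.10, SE 0.31, 95% interval -0.83 to 0.63, limma adjusted p = 0.888). The difference between the fold changes of *Myd88* and *Acaa1a* was not tested.

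Peaks called in each library were few near the receptors. The region beside *Myd88* held a peak in both WT libraries and in neither cKO library, and its bounds were those of the WT library 1 peak. All regions of the authors' set overlapped peaks of at least 2 libraries. These peaks are therefore no separate evidence for the lower cKO value of the region. Within 1000 bp of an end, 4 members had a peak in WT library 1 (*Tlr2*, *Tlr4*, *Tlr6* and *Myd88*), where 30.6% of all genes and 49.3% of protein-coding genes had one. In WT library 2, 1 member did (*Myd88*), against 25.1% and 42.8%, and in cKO libraries 1 and 2, 0 members did, against 10.6% and 11.5% of all genes and 12.4% and 12.8% of protein-coding genes. The total number of peaks was 76522 and 42265 in WT and 55902 and 68317 in cKO libraries 1 and 2, so that both cKO totals lay between the WT totals. With 2 libraries a group, no exact permutation test could pass 0.05, and the presence of peaks was not tested. The *Tlr2* peak, chr3:83841436-83841858, covered the annotated start of the gene. The *Tlr4* peak, chr4:66827629-66827997, lay 78 bp inside the lower end of the gene. The peak near *Tlr6*, chr5:64970079-64970330, lay where *Fam114a1* begins and overlaps *Tlr6*. *Tlr3*, *Tlr7*, *Tlr8* and *Tlr9* had no peak within 3000 bp of an end in any library.

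Sequence before the start is shown for *Tlr2*, where 1 WT library had a peak over it, for *Acaa1a*, where it lies inside the region, and for *Myd88*, the member nearest to that region. Each stretch is the 250 bases before a transcript start in RefSeq on GRCm38.p6, written 5' to 3' in the direction of the gene. The gene spans of *Tlr2* and *Acaa1a* begin before these transcript starts, so most of the *Tlr2* stretch and all of the *Acaa1a* stretch, with the matches marked in them, lie within the annotated genes. Capitals mark matches to the motifs searched on both strands.
Tlr2, chr3:83841609-83841858, minus strand: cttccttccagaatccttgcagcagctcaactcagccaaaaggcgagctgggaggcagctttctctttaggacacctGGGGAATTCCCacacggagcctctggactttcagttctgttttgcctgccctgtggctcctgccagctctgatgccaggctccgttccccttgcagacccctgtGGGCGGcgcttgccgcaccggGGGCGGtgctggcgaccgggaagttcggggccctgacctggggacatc
Myd88, chr9:119340019-119340268, minus strand: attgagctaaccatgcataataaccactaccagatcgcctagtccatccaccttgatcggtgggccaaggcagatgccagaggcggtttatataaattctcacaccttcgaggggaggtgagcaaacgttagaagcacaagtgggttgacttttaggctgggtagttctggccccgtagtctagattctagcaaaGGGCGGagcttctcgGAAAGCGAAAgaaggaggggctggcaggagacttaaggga
Acaa1a, chr9:119341044-119341293, plus strand: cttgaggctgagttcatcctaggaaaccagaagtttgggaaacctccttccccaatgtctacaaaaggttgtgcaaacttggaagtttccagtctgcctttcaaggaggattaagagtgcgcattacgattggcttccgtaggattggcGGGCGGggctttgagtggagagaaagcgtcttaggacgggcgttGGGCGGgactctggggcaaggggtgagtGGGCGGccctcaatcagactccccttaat

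The *Tlr2* stretch held an NF-kB consensus, matched on both strands by the overlapping words GGGGAATTCC and GGGAATTCCC, 173 and 172 bases before the start, and GGGCGG, the core of an SP-factor site, 69 and 48 bases before it. It lies wholly inside the WT library 1 peak. The *Myd88* stretch held GAAAGCGAAA, a match to GAAANNGAAA, the core of interferon-stimulated elements, 40 bases before the start, and GGGCGG 55 bases before it. No library had a peak over it. The *Acaa1a* stretch, which lies inside the region, held GGGCGG 3 times and none of the other motifs. The other motifs searched were TGANTCA, an AP-1 word, and GAGGAAGT, a PU.1 word. Stretches of the other members with start sequences, not printed here, held matches too. These were the NF-kB consensus at *Tlr3*, GAAANNGAAA at *Tlr6*, GAGGAAGT at *Tlr1*, TGANTCA at *Tlr9* and GGGCGG at *Tlr5*, while *Tlr8* held none. Of 32851 promoter stretches of the same length, 7.25% held the NF-kB consensus, 2.98% GAAANNGAAA, 6.75% TGANTCA, 2.44% GAGGAAGT and 32.7% GGGCGG. These are matches of letters and say nothing of binding.

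**Figure D5:**
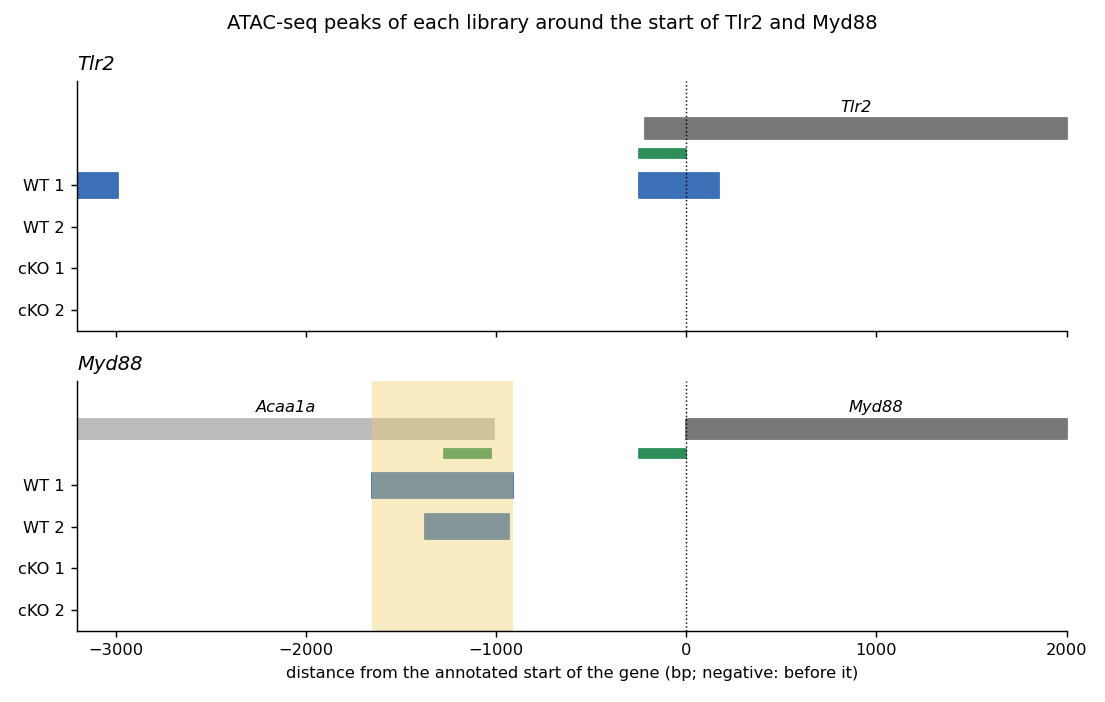
Peaks of the 4 ATAC-seq libraries (blue bars) by distance from the annotated start of *Tlr2* and of *Myd88* (horizontal axis, bp, negative before the start), with the genes in grey, the stretches printed in the text in green and the region of the authors' table in yellow. *Tlr2* has a peak at its start in WT replicate 1 alone, the *Myd88* region spans -1654 to -913 bp from the *Myd88* start over the beginning of *Acaa1a*, and the cKO rows are empty.

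Of the 75 other pathway genes, 30 (40.0%) had a region within 1000 bp of an end, where 20.6% of all genes and 37.2% of protein-coding genes had one. All 30 regions had a difference of -1 or lower, beside 59.8% of all regions. Their median was -3.02, from -4.58 at *Hsp90b1* to -1.33 at *Tirap*, beside -1.57 over all regions. Every region of the authors' set overlapped peaks of at least 2 libraries. Each of the 30 overlapped a peak in both WT libraries and in neither cKO library, which favours lower cKO values. The values over all regions were not limited to such regions, and the difference was not tested. Peaks of cKO libraries did lie near these genes, outside the 30 regions. Within 1000 bp of an end, 10 and 8 of the 75 genes had a peak in cKO libraries 1 and 2, and 43 and 35 in WT libraries 1 and 2. Of protein-coding genes, 12.4% and 12.8% had one in cKO libraries 1 and 2, and 49.3% and 42.8% in WT libraries 1 and 2. The regions at *Nfkbia* (-3.12) and *Zc3h12a* (-2.81) accompanied lower RNA means in cKO. That at *Sarm1* (-2.96) accompanied a higher RNA mean, and that at *Hsp90b1* an RNA log2 fold change of 0.00 to 2 decimals. A lower region value stood beside RNA means that were lower, higher or nearly equal.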

How the data were processed

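RNA-seq (3 WT, 3 cKO) and ATAC-seq (2 WT, 2 cKO) libraries were grouped by their labels. The authors derived TPM from trimmed reads with Salmon 1.0.0 and tximport on a GENCODE annotation of GRCm38, without scaling between libraries. TPM keeps no depth, so no counting error can be given. The deposited log2 values of the ATAC-seq regions are group means of normalized reads from DiffBind after alignment with Bowtie2 2.3.5.1, and peaks were called per library. MACS2 2.2.5 is named in the submitters' processing notes. The tables also hold the authors' own fold changes and p-values (RNA-seq by DESeq2 1.26.0), which were not used.

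The 17555 genes reaching 1 TPM in 3 or more of the 6 libraries were compared as log2(TPM + 1) by limma 3.58.1 in R 4.3.3 with an intensity trend, without a block, with p-values adjusted by Benjamini-Hochberg over all genes and a threshold of 0.05, and by exact two-sided permutation tests. The study used a count test, which TPM does not allow. The fit was tested on simulated data. P-values measure the spread between samples that the series' design text calls biological replicates. Deviations of same-numbered libraries from their group means correlated by 0.334, 0.101 and 0.425, so a fit with the replicate number as a block was run as an alternative. Other alternatives were a pseudocount of 0.1, no filter, a minimum of 5 on the mean TPM, no trend, median-of-ratios scaling, leaving out each library, a 3000 bp window, and a 50% reciprocal overlap of peaks. Named were all members, and of the pathway list the genes with an unadjusted p under 0.05 and groups that do not overlap, at most 4 per role, and *Tlr11* to *Tlr13*; other genes named, such as *Hsp90b1*, *Irak1*, *Irak4*, *Traf6* and *Acaa1a*, were chosen after their values were seen. The members, the lists and the tests were chosen with earlier results of these data known. Gene positions and sequences are from RefSeq (GRCm38.p6); positions were found for all 10 members, and start sequences for 8 of them. Figures were drawn with matplotlib 3.10.9.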

Additional observations from a re-analysis of the deposited data

How the results depend on the processing

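No member and no other pathway gene passed an adjusted p of 0.05 in limma under any alternative run. Of 89 log2 fold changes of the 8 members tested under the alternatives, 87 kept their sign, and the exceptions were *Tlr1* (0.13) and *Tlr4* (0.071), both without WT library 3. Leaving out each library in turn gave -1.01 to 0.13 for *Tlr1* and -0.70 to 0.071 for *Tlr4*. The 197 of the 17 other pathway genes tested by name kept theirs. Members lower at an unadjusted p under 0.05 numbered 1 to 4 when each library was left out, against 3, pathway genes lower 10 to 29, against 21, and pathway genes higher 1 to 2, against 1. Over all genes, those lower numbered 699 to 1321, against 1133, and those higher 976 to 2279, against 2095. The replicate block changed no call of a member, and the lowest adjusted limma p it gave was 0.0979 for *Myd88*. With the 3000 bp window, members with a peak numbered 6 in WT library 1, 1 in WT library 2, 2 in cKO library 1 (0 at 1000 bp) and 1 in cKO library 2 (0 at 1000 bp), and the *Myd88* region stayed the only region near a member. For ATAC-seq, no paired analysis was possible because the table gives group values alone. Depth is not given, so the precision of members near 1 TPM (*Tlr5*, *Tlr8* and *Tlr9*) is set by the spread between 3 libraries.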
